A study of Mus musculus with 14 samples.

Results

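The transcriptional response to ionizing radiation that lymph node tissue with and without Atm had in common was measured 120 min after exposure. Of the 14 Affymetrix arrays in the study, 10 were compared: 2 from irradiated Atm-/- (KO) tissue at 120 min, 3 from untreated KO tissue, 2 from irradiated Atm+/+ (WT) tissue at 120 min and 3 from untreated WT tissue. The 4 arrays from 30 min after irradiation, 2 per genotype, served to estimate the spread and are given beside the members. The shared response was taken as the mean of the change within KO and the change within WT, 4 arrays against 6, so that both genotypes weighed the same and the untreated difference between them dropped out. Members were then sought among the probe sets that moved in the same direction in both genotypes.

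All arrays carry RNA labelled as mouse lymph node. The labels used here give no radiation dose, age, sex or strain and do not say how Atm was disrupted. Nothing says that the arrays of a group came from separate animals, so p-values measure the spread between these arrays, which may be technical.

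Atm is the kinase that responds first to DNA double-strand breaks. It acts on p53, the transcription factor that induces cell-cycle arrest and death genes, and it also activates NF-kB, the transcription factor of inflammatory and survival genes, from the damaged nucleus. Related kinases, Atr and DNA-PK, can act on p53 as well, and breaks, oxidative stress and tissue handling reach further stress pathways that do not need Atm.

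Values are deposited intensities, arbitrary units that each array had been scaled to share. Changes are on the scale of log2(intensity + 32) after quantile normalization, which understates the change of dim probe sets, and are given ± SE from a limma fit of group means. A probe set is called at a Benjamini-Hochberg adjusted p under 0.05 over the 8938 probe sets tested, which stood for 6541 genes.

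Atm itself did not separate the genotypes on its 1 probe set. It read 37.3 and 13 in KO at 120 min and 44, 7.5 and 24 in untreated KO, against 55.9 and 36.1 in WT at 120 min and 54.8, 34.5 and 8.1 in untreated WT. All lay below the median intensity of every array (61 to 80.4). The tissue label was checked against markers: 18 B cell and 17 T cell markers were measured, with summed intensities of 5142 to 7640 and 1282 to 2067 over the 14 arrays, while 18 salivary gland genes summed to between 91160 and 153816. All 14 arrays thus carried a far larger summed salivary signal than lymphocyte marker signal. The salivary sums were 138733 and 145804 in KO at 120 min, above the 91160 to 115048 of untreated KO. In WT they were 109562 and 127559 at 120 min, against 107491 to 119444 untreated. The part of this shift in the results was not tested. Skeletal muscle genes also varied, with sums of 3465 and 7291 in KO at 120 min and 6807 to 18332 in untreated KO, against 7226 and 7391 in WT at 120 min and 4190 to 6410 in untreated WT. The ratio of 3′ to 5′ Gapdh control intensity, a sign of RNA quality, was 0.857 and 0.777 in KO at 120 min and 0.867 to 0.976 in untreated KO, against 0.891 and 0.723 in WT at 120 min and 0.902 to 1.007 in untreated WT, and its part in the results was not tested. In such bulk RNA, fewer cells of a type and less RNA per cell cannot be told apart.

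Across both genotypes 18 probe sets rose (0.201% of those tested) and 1 fell (0.0112%), together 19 (0.213%) standing for 16 genes. The risers were p53 targets such as Cdkn1a and Phlda3, early-response genes such as Junb and Ier3, and NF-kB targets such as Nfkbia, Cxcl1 and Tnfaip3, while Cd22, a B cell surface receptor, fell. Most of these changes were carried by WT: 16 of the 19 were larger there, and in 12 of the 19 the change within KO did not reach an unadjusted p of 0.05. The signs of the changes in KO and WT were the same for 16 of the 19 and opposite for 3. Irradiated and untreated arrays did not overlap in both genotypes for 13 of the 19, against 2.24% of tested probe sets that were higher and 2.09% that were lower in this way. The 19 were chosen by the change between these same arrays, which favours such separation. Within 1 genotype the groups did not overlap, in either direction, for 26.7% of tested probe sets in KO and 27% in WT.

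A smaller core rose in each genotype taken on its own. Among the risers, 7 probe sets (0.0783% of those tested) were called across genotypes and rose at an unadjusted p under 0.05 in both, and 0 fell (0%). They were the cell-cycle inhibitor gene Cdkn1a, the AP-1 subunit gene Junb, the Polycomb subunit gene Pcgf2, the p53 target Phlda3, the receptor genes Gpr132 and Erbb3, and probe set 104646_at, to which the annotation used here gives no gene.

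**Figure D1:**
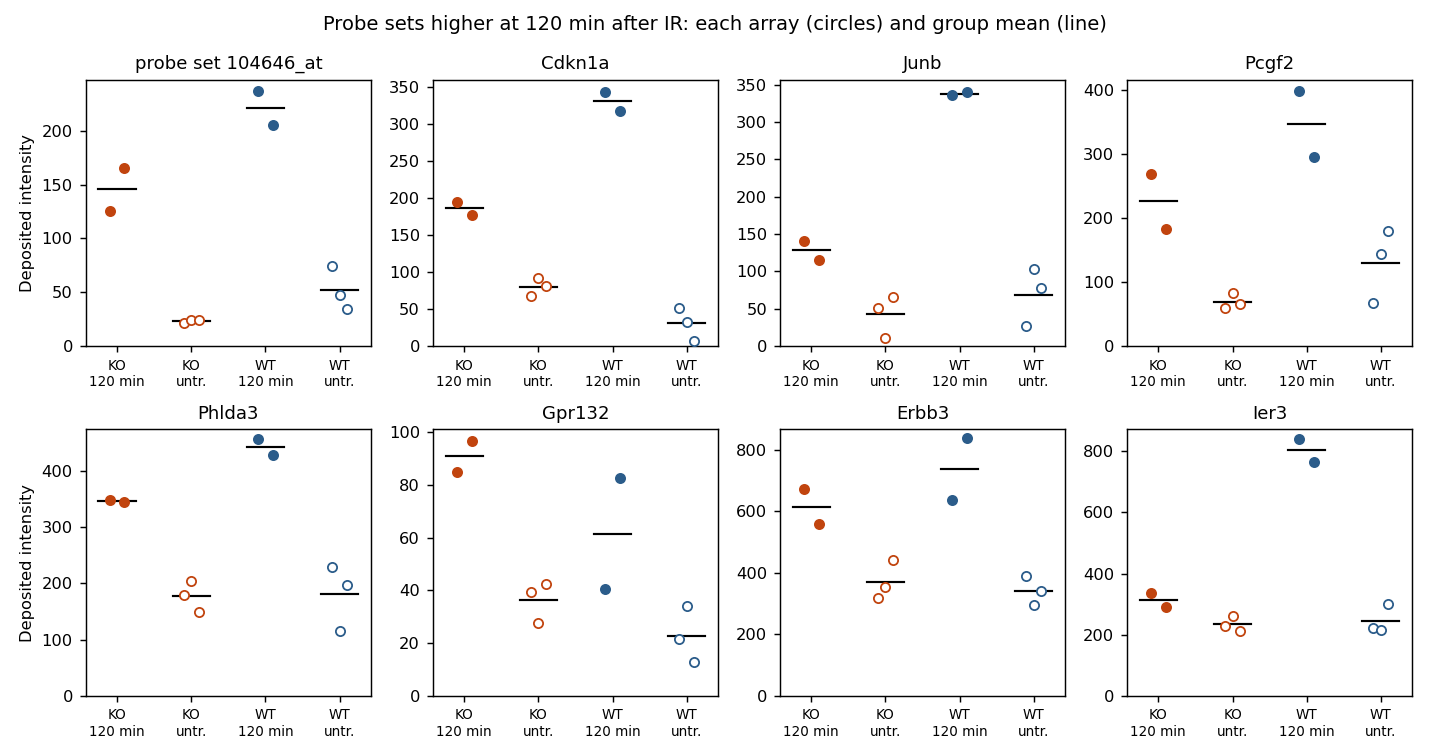
Deposited intensity (vertical axis, linear) on each array for the 7 core probe sets and Ier3, with KO at 120 min, untreated KO, WT at 120 min and untreated WT from left to right. Circles are arrays and lines are group means. In each panel the 120 min arrays of a genotype lie above its own untreated arrays, most narrowly for Ier3 in KO and for Gpr132 in WT.

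The strictest question, whether any probe set passed in KO and in WT separately, gave no call. Under limma 0 probe sets were called within KO (0%, smallest adjusted p 0.0927, 645 at an unadjusted p under 0.05), and 0 passed when the larger p of the 2 genotypes was adjusted (0%, smallest adjusted p 0.181). Within WT 46 probe sets were called (0.515%), of which 42 rose (0.47%) and 4 fell (0.0448%). At an unadjusted p under 0.05 in each genotype, 34 probe sets were higher in both (0.38%) and 18 lower in both (0.201%).

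Probe set 104646_at had the largest change within KO of the 7 core probe sets, and it was singled out after its values were seen because it has no gene name. It read 125.3 and 165.8 in KO at 120 min, against 21.2, 24 and 23.8 in untreated KO. In WT it read 236.6 and 205.3 at 120 min, against 74.4, 47.2 and 34.6 untreated. Both irradiated groups lay clear of their untreated arrays, and the 30 min arrays lay between them, except 1 WT array at the top of its untreated range (70 and 100.1 in KO, 138 and 74 in WT). The rise across genotypes was 1.66 ± 0.17 (limma adjusted p = 0.000802), with 1.72 in KO and 1.61 in WT. The KO change minus the WT change was 0.11 (95% interval -0.64 to 0.86), an interval that leaves room for a difference of over 1.5-fold either way. The call held without any 1 of the 14 arrays and under the 13 other settings tried.

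Cdkn1a encodes p21, the cyclin-dependent kinase inhibitor through which p53 arrests the cell cycle. Its intensity was 194.1 and 177.5 in KO at 120 min, against 67.2, 91.5 and 81.7 in untreated KO. In WT it was 342.9 and 318.1 at 120 min, against 52, 32.3 and 7.1 untreated. Irradiated and untreated arrays did not overlap in either genotype, and the untreated KO arrays lay above the untreated WT arrays (KO minus WT 0.90 ± 0.23, limma adjusted p = 0.634). The rise was 1.79 ± 0.18 across genotypes (limma adjusted p = 0.000802), 0.99 ± 0.26 in KO and 2.59 in WT. The response was smaller in KO by an estimate of -1.61 (95% interval -2.40 to -0.81), although the adjusted p of that difference was 0.218 over all probe sets. A second Cdkn1a probe set, 98067_at, had a smaller change and was not called (0.77, limma adjusted p = 0.227). Its change was 0.51 in KO, where 119.3 and 46.6 at 120 min overlapped 48, 49 and 41.5 untreated. In WT its change was 1.02, and 136 and 175.4 at 120 min did not overlap 99.9, 48.8 and 44.1 untreated. The KO rise thus rests on the first probe set.

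Phlda3, a p53 target that restrains Akt signalling, read 348.6 and 344.4 in KO at 120 min, against 179.7, 205.1 and 148.7 in untreated KO. WT tissue gave 457.4 and 428.7 at 120 min, against 229.7, 115.6 and 197.3 untreated. Neither genotype's groups overlapped, and the 30 min arrays (225.1 and 205.3 in KO, 191.5 and 171.5 in WT) lay near the untreated ones. It rose by 1.03 ± 0.16 (limma adjusted p = 0.0262), 0.87 in KO and 1.18 in WT, and the KO minus WT difference of -0.30 had a 95% interval of -1.002 to 0.39.

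Junb, an AP-1 subunit induced early by many stimuli, was called on 1 of its 2 probe sets. On 102362_i_at it read 141 and 115.8 in KO at 120 min, against 50.7, 11 and 65.5 in untreated KO. Its WT intensities were 336.1 and 340.1 at 120 min, against 26.3, 103.2 and 77.2 untreated. All irradiated arrays lay above all untreated arrays of both genotypes, and the rise was 1.60 ± 0.27 (limma adjusted p = 0.0326). The other probe set, 102363_r_at, disagreed in KO, where its change was -0.24 against 1.27 in WT, and it was not called (limma adjusted p = 0.466).

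Pcgf2, a subunit of Polycomb repressive complexes, changed evenly in both genotypes on probe set 103718_at, by 1.37 in KO and 1.28 in WT (1.32 ± 0.22, limma adjusted p = 0.0313). Pcgf2 read 268.7 and 183.1 in KO at 120 min, against 58.8, 82.9 and 66.4 in untreated KO. In WT it read 398.9 and 296 at 120 min, against 67.6, 143.9 and 179.6 untreated. In KO it already read 274 and 151.1 at 30 min, close to its 120 min values, while the 30 min WT arrays (160.3 and 139.8) lay within the untreated range. Its second probe set, 96961_at, changed in opposite directions, by 0.56 in KO and -0.36 in WT (0.10 across genotypes, limma adjusted p = 0.955), and did not show this rise.

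Both receptor genes of the core rose by less than 1 on the log2 scale. Erbb3, an ErbB family receptor tyrosine kinase, read 670.8 and 557.4 in KO at 120 min, against 318.6, 352.9 and 442 in untreated KO. The WT arrays had 636.1 and 838.5 at 120 min, against 389.7, 294.3 and 340.5 untreated, a rise of 0.86 ± 0.15 across genotypes (limma adjusted p = 0.0365). Gpr132, a G protein-coupled receptor known from lymphocytes and macrophages, was dim: 85 and 96.9 in KO at 120 min, against 39.3, 27.6 and 42.3 in untreated KO. In WT it was 40.4 and 82.7 at 120 min, against 21.4, 34.2 and 12.7 untreated, and the rise was 0.86 ± 0.15 (limma adjusted p = 0.0385). All untreated Gpr132 readings lay below the 40th percentile of their arrays (43.2 to 49.9). Gpr132 thus passed the intensity filter through irradiated arrays alone, which favours a rise. Neither gene's groups overlapped within a genotype.

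The calls of 5 core genes depended on single arrays. Junb lost its call without any 1 of 8 of the 14 arrays (limma adjusted p up to 0.191), Pcgf2 without 10 (up to 0.195), Erbb3 without 10 (up to 0.239), Gpr132 without 11 (up to 0.256) and Phlda3 without 6 (up to 0.141). Each of the 4 arrays from 120 min was among those whose removal ended the call for all 5, whereas Cdkn1a kept its call without any 1 array. Beside those 4, the call ended for Phlda3 without KO untreated A or C, and for Junb without KO untreated A, WT untreated C or either WT 30 min array. It ended for Pcgf2 without any untreated KO array, WT untreated B or either WT 30 min array, and for Erbb3 without KO untreated A or B, WT untreated B or C, or either WT 30 min array. For Gpr132 it ended without any untreated KO array, WT untreated A or C, or either WT 30 min array.

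**Figure D2:**
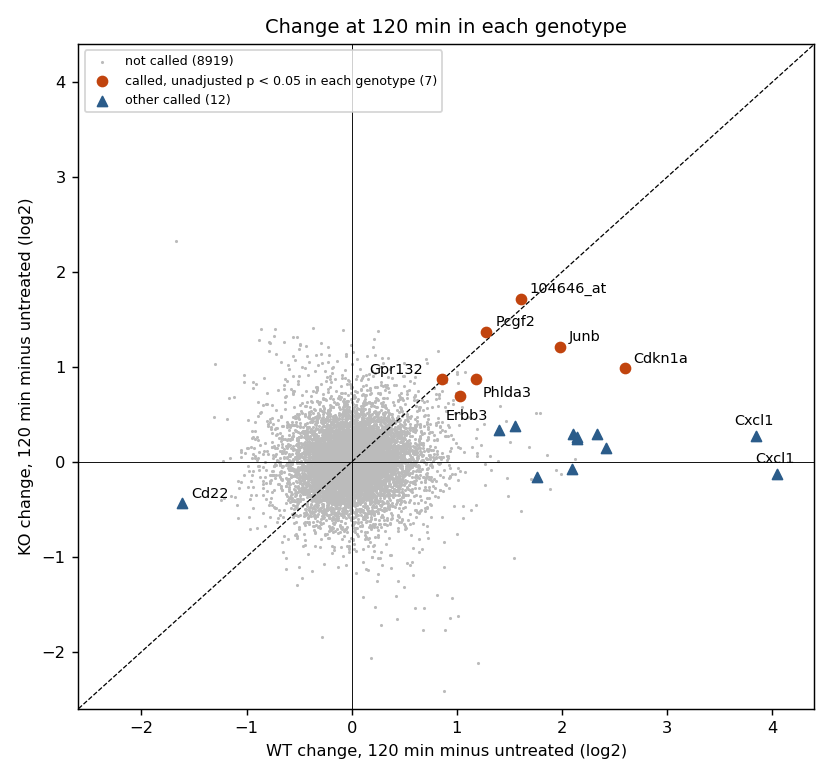
Change at 120 min against untreated in KO (vertical axis) and in WT (horizontal axis), in log2 units, for all 8938 tested probe sets, with the 19 called across genotypes marked. The core probe sets other than Cdkn1a lie nearer the diagonal, which their selection for a change in each genotype favours. Cxcl1 lies far along the WT axis near a KO change of 0, and Cd22 lies below 0 on both axes.

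Promoter windows were read for the genes above, since p53 and NF-kB bind short known motifs. RefSeq windows on GRCm38.p6 covering 250 bases before the start were found for 21 of the 26 probe sets or genes named here. The 4 below are shown because they hold the motif of the factor their gene is known for, with matches on either strand in capitals. Cdkn1a lies on the plus strand (chr17:29090729-29090978, the upstream of its 2 start sites), Ier3 on the plus strand (chr17:35821463-35821712), Nfkbia on the minus strand (chr12:55492648-55492897) and Cxcl1 on the plus strand (chr5:90890995-90891244).
Cdkn1a: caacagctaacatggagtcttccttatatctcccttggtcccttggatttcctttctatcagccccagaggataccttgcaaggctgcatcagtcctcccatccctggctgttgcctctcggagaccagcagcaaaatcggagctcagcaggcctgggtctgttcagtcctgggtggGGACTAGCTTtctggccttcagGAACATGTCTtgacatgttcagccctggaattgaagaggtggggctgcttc
Ier3: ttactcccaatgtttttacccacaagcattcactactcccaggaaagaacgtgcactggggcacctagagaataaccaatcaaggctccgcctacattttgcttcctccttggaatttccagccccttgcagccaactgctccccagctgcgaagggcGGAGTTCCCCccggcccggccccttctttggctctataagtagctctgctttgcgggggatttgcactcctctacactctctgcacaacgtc
Nfkbia: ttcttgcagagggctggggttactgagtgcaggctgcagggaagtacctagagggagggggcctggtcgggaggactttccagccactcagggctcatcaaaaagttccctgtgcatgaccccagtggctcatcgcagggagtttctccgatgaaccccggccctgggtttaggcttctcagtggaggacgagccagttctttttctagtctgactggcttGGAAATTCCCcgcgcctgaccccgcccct
Cxcl1: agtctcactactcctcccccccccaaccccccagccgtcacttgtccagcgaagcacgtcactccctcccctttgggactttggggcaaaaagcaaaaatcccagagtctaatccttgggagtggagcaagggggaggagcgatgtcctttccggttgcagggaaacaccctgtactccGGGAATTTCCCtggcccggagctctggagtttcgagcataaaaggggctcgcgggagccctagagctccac

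The capitals in Cdkn1a are 2 matches to the p53 half-site consensus, the first 73 to 64 bases before the start, and those in the other 3 are matches to the NF-kB consensus. The Ier3 match lies 92 to 83 bases and the Nfkbia match 29 to 20 bases before the start. In Cxcl1 a pair of matches overlap by all but 1 base. Of all 32851 promoter windows of this length, 3.9% held an NF-kB match and 7.13% a p53 half-site match on either strand. Irf1 and Tnfaip3 also held an NF-kB match, whereas the windows of Icam1 and Bcl3, called NF-kB targets as well, held none, and Relb had no window. Pcgf2 held a p53 half-site match, and the second Cdkn1a window and the Phlda3, Junb and Gpr132 windows held neither. None of the 4 core genes Junb, Phlda3, Gpr132 and Pcgf2 held the CRE TGACGTCA (1.55% of windows) or the AP-1 motif TGANTCA (6.75%). A match is a description of these letters, not a bound site.

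The p53 target list had 23 measured genes, of which 2 rose across genotypes, Cdkn1a and Phlda3, and 0 fell, against 14 that rose and 1 that fell of all 6541 genes. Of the 23, 15 had a change above 0 in both genotypes (65.2%, against 26.5% of all 6541 genes), and the median change was 0.09 in KO and 0.47 in WT, against -0.0026 in KO and -0.0035 in WT over all genes. Mdm2, the ubiquitin ligase that p53 induces to limit itself, read 227.6 and 344.1 in KO at 120 min, against 187, 113.8 and 107.3 in untreated KO. In WT it read 325.3 and 323.9 at 120 min, against 82.2, 207.4 and 140.1 untreated. Groups did not overlap in either genotype, and its change of 1.01 (0.95 in KO, 1.07 in WT) reached an unadjusted p under 0.05 in each but was not called (limma adjusted p = 0.171).

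Ddit3, the stress transcription factor CHOP, also on that list, was higher without a call, at 0.80 across genotypes (0.75 in KO, 0.86 in WT, limma adjusted p = 0.212). In KO it read 186.6 and 179.8 at 120 min, against 107.2, 165.7 and 46.5 untreated. Its 30 min KO arrays already read 223.4 and 173.4. The p53 targets Btg2, Ccng1 and Plk2 had values that lay mainly on the WT side. Btg2, an antiproliferative gene, had 0.15 in KO and 1.15 in WT. Ccng1, which encodes cyclin G1, had 0.04 in KO and 0.70 in WT, and Plk2, a Polo-like kinase gene, had 0.03 in KO and 0.74 in WT. None of these 3 was called across genotypes.

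NF-kB targets supplied most of the calls, and in these the 2 genotypes parted. Of 31 measured genes 8 rose across genotypes and 0 fell, against 14 that rose and 1 that fell of all 6541 genes. The 8 were Nfkbia, Cxcl1, Tnfaip3, Ier3, Icam1, Irf1, Bcl3 and Relb, and none of them reached an unadjusted p of 0.05 in KO. Nfkbia, the inhibitor IkB-alpha that NF-kB induces to switch itself off, read 606.7 and 647.2 in KO at 120 min, against 574.1, 579.5 and 542.3 in untreated KO. Readings in WT were 3247 and 2736 at 120 min, against 536.8, 622 and 505.7 untreated. The KO groups of Nfkbia did not overlap, which was also so for 26.7% of tested probe sets in KO. Its KO change was 0.15 (95% interval -0.20 to 0.49) while WT rose by 2.42, and the KO minus WT difference was -2.27 (limma adjusted p = 0.00179). These values are from 101554_at. The other Nfkbia probe set, 104149_at, had a KO change below 0 (-0.16), with 259.6 and 273 in KO at 120 min overlapping 340.4, 242.6 and 335.1 in untreated KO, and a WT change of 1.77. Its call across genotypes (0.80, limma adjusted p = 0.0352) was lost without any 1 of 11 of the 14 arrays (limma adjusted p up to 0.202), which were all but WT untreated A and the KO 30 min arrays.

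Ier3, an early-response gene that modulates survival signalling, was nearest to the core among the NF-kB targets. It read 336.7 and 289 in KO at 120 min, against 229.5, 259.6 and 212.1 in untreated KO, a change of 0.38 whose 95% interval, -0.0016 to 0.76, just included 0. In WT it read 840.5 and 766.9 at 120 min, against 221.3, 215.4 and 299.1 untreated, and across genotypes it rose by 0.97 ± 0.12 (limma adjusted p = 0.0044). Its WT arrays were highest at 30 min, at 1469 and 1330, while the 30 min KO arrays read 257.5 and 222.5.

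Cxcl1, a neutrophil-attracting chemokine, had the widest gaps between the genotypes, on both of its called probe sets. On 95348_at it read 48.7 and 54 in KO at 120 min, against 56.9, 47.7 and 16.2 in untreated KO, and 931.3 and 1275 in WT at 120 min, against 31.5, 59.1 and 49.3 untreated. The KO groups overlapped and the WT groups did not. Its call across genotypes (2.06 ± 0.20, limma adjusted p = 0.000802) was thus the mean of 0.27 in KO and 3.84 in WT. The gap was wider still on 95349_g_at, where the KO change was below 0 (-0.13) and the WT change was 4.05. That probe set read 72.2 and 40.7 in KO at 120 min, against 66.2, 82.6 and 46.2 in untreated KO, which again overlapped. Tnfaip3, Icam1, Bcl3, Relb and Irf1 had KO changes of 0.24 to 0.34 and WT changes of 1.40 to 2.33. Cd14, the lipopolysaccharide co-receptor of myeloid cells, read 305.1 and 286.8 in KO at 120 min, against 295.7, 302.2 and 359.2 in untreated KO, and 1209 and 1232 in WT at 120 min, against 174, 366.2 and 258.4 untreated. Leaving out 1 array ended the call across genotypes in 8 of 14 cases for each of Irf1, Bcl3 and Relb and in 9 for Cd14 (limma adjusted p up to 0.174), and either WT 120 min array was among these for all 4.

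Although no called NF-kB target passed in KO, most of the list lay above 0 there as well, in part at dim readings. Of the 31 genes, 21 had a change above 0 in both genotypes (67.7%, against 26.5% of all genes), with medians of 0.24 in KO and 0.44 in WT. Map3k8, the kinase Tpl2 that is regulated by NF-kB p105, was the only one with an unadjusted p under 0.05 in each genotype (0.67 in KO, 1.04 in WT), and its change of 0.86 missed the call (limma adjusted p = 0.053). Cd40 and Vcam1, a costimulatory receptor and an adhesion molecule, had larger values in KO (0.90 and 0.59) than in WT (0.21 and 0.19), also without a call. The dim readings include Tnfaip3, at 18.1 and 7.2 in KO at 120 min against 4.1, 3 and 5.3 untreated. Bcl3 read 28.4 and 32.7 in KO at 120 min, against 15.4, 29.3 and 19.6 untreated. All of these lay below the 40th percentile of their arrays (46.2 to 49.9). Tnfaip3 passed the filter through irradiated WT arrays alone, and Bcl3 through irradiated arrays alone.

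**Figure D3:**
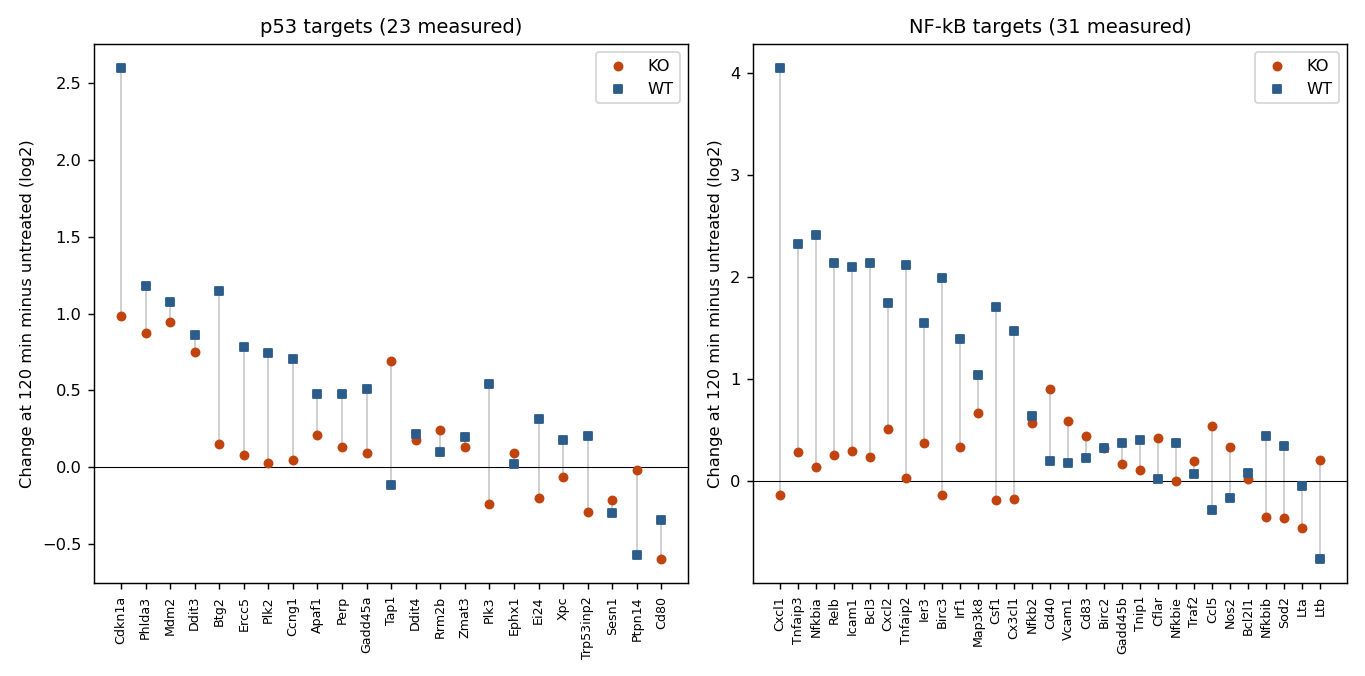
Change at 120 min against untreated in KO and in WT, in log2 units, for each of the 23 measured p53 targets (left) and 31 NF-kB targets (right), with a grey line joining the 2 values of a gene. KO and WT values lie close together for Phlda3, Mdm2 and Ddit3 and far apart for the called NF-kB targets.

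How far the responses of KO and WT differed was tested in the same fit and called for 12 probe sets (0.134%), all smaller in KO, and 7 of them were among the 19 called across genotypes. None of the 7 core probe sets had a called difference. For 6 of the 7 the 95% interval of the difference included 0, the exception being Cdkn1a, but with a median SE of 0.33 for such a difference these intervals were wide. The core was also chosen for a change in the same direction in each genotype, which favours small differences. These intervals therefore cannot show that the core responded alike in KO and WT.

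**Figure D4:**
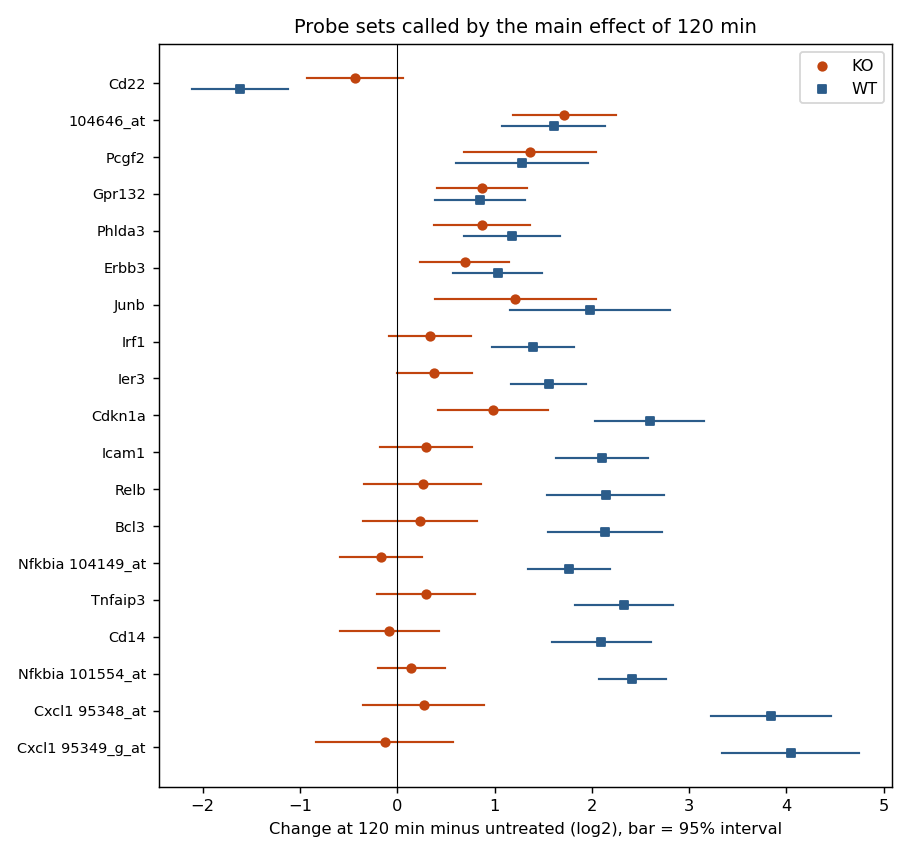
Change at 120 min against untreated in KO and in WT, in log2 units with 95% intervals, for the 19 probe sets called across genotypes. Intervals of KO exclude 0 for the 7 core probe sets, as the definition of the core requires, and include it for the other 12.

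Falls shared by both genotypes were few and small. The 1 called fall, Cd22, an inhibitory co-receptor of the B cell receptor, read 43.4 and 43.8 in KO at 120 min, against 80.8, 47.6 and 89.5 in untreated KO. WT arrays showed 7 and 5.7 at 120 min, against 103, 80.6 and 91.4 untreated. The groups did not overlap, and the change of -1.03 ± 0.16 (limma adjusted p = 0.0262) combined -0.44 in KO (unadjusted p = 0.079, limma) with -1.62 in WT. Its call was lost without any 1 of 7 of the 14 arrays, namely all 4 from 120 min, KO untreated A and C and WT untreated C (limma adjusted p up to 0.165). Beside it, the 18 B cell markers had median changes of 0.08 in KO and -0.52 in WT and sums of 7284 and 7640 in KO at 120 min and 5885 to 7368 in untreated KO, against 5142 and 5607 in WT at 120 min and 6015 to 7379 in untreated WT. Their part in the Cd22 change was not tested.

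Next came 9 genes that missed the call and were taken in order of p. Kcnk1, a potassium channel gene, read 330.9 and 401.3 in KO at 120 min, against 744.1, 870.5 and 841.7 in untreated KO. In WT it read 504.2 and 332.1 at 120 min, against 528.2, 601.3 and 616.1 untreated. The change was -0.81 ± 0.15 (limma adjusted p = 0.0527), with -1.11 in KO and -0.50 in WT, and the KO arrays had already reached 417.2 and 383 at 30 min. Gstm5, a glutathione transferase gene, had -0.45 in KO and -0.52 in WT on 100629_at (limma adjusted p = 0.167). Of its other probe sets, 161722_f_at disagreed in KO, with 0.18 against -0.53 in WT. Below 0 in both genotypes were 100630_f_at, with -0.40 in KO and -0.21 in WT, and 100631_r_at, with -0.59 in KO and -1.08 in WT. None of these was called.

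Beside Kcnk1 and Gstm5, 3 of the 9 reached an unadjusted p under 0.05 in each genotype without a call. The endocytic receptor gene Lrp2 had -0.51 in KO and -0.65 in WT (limma adjusted p = 0.172). Lrp2 was dim (6.1 to 59.2 over all arrays) and passed the intensity filter through WT untreated B and KO untreated B alone, which favours a fall. Zcrb1, a gene of the minor spliceosome, had -0.49 in KO and -0.73 in WT (limma adjusted p = 0.167). Thap12, a THAP domain gene, had -0.46 in KO and -0.79 in WT (limma adjusted p = 0.147). The second Thap12 probe set, 99975_at, had -0.12 in KO and 0.29 in WT. The other 4 reached an unadjusted p under 0.05 in 1 genotype at most. Mgst3, a microsomal glutathione transferase gene, had -0.63 in KO and -0.30 in WT, while H2-Ob, an MHC class II regulator gene, had -0.20 in KO and -0.95 in WT and Tent5c, a poly(A) polymerase gene, -0.24 in KO and -0.85 in WT.

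Atp5mpl, a subunit of mitochondrial ATP synthase, had -0.20 in KO and -1.09 in WT without a call. Its list, the 49 measured oxidative phosphorylation genes, had 0 called across genotypes, but 27 of the 49 were below 0 in both (55.1%, against 27.2% of all genes), with medians of -0.14 in KO and -0.13 in WT. The list's median intensity overlapped in KO, at 807.6 and 945.8 at 120 min against 825 to 931.5 untreated. In WT it overlapped too, at 673.8 and 810.5 against 775.8 to 878. Such a share was also found for mitosis genes (11 of 20, 55%) and plasma cell markers (5 of 8, 62.5%). The immediate-early list had 2 called risers of 30 by the probe set that stands for each gene, Tnfaip3 and Ier3, against 14 of all 6541 genes, and 15 of 30 above 0 in both genotypes (50%, against 26.5% of all genes). Its median change was 0.03 in KO and 0.40 in WT. The list's median intensity in KO, 129.45 and 131.8 at 120 min, lay within the untreated range of 120.7 to 163.15. Egr1, an early zinc-finger transcription factor, had 0.34 in KO and 0.42 in WT, while Dusp1, a MAP kinase phosphatase gene, had -0.51 in KO against 1.13 in WT.

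**Figure D5:**
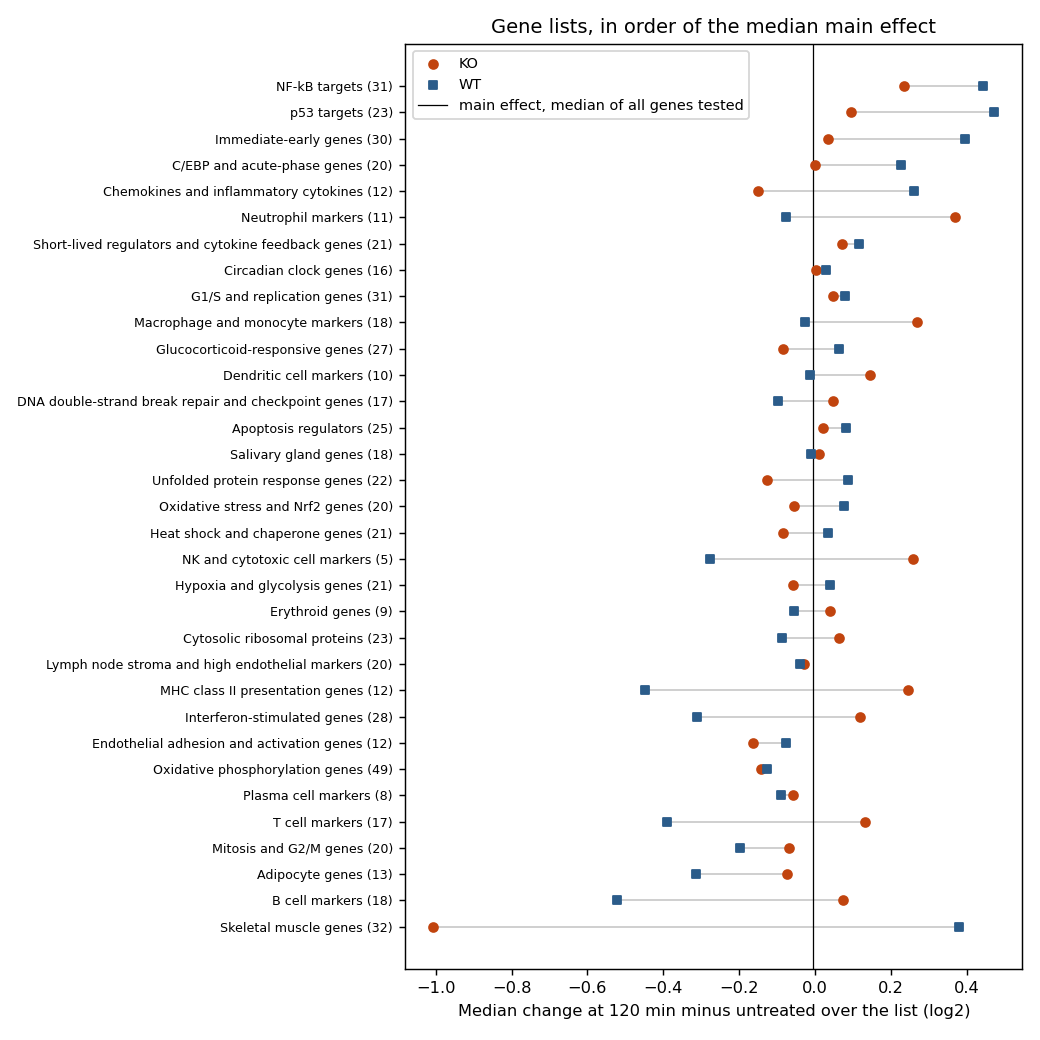
Median change at 120 min against untreated in KO and in WT, in log2 units, for each of the 33 gene lists, with the number of measured genes in brackets. The vertical line marks the median of all genes tested. The NF-kB and p53 lists lie above 0 in both genotypes and the oxidative phosphorylation list slightly below 0 in both, while skeletal muscle, B cell, T cell and MHC class II genes have opposite signs in KO and WT.

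Of the 33 lists, 11 had at least 1 member called across genotypes and 22 had none, among them DNA repair, mitosis, replication, heat shock, hypoxia and ribosomal genes. Medians of those 22 ran from -0.31 for skeletal muscle to 0.12 for neutrophil markers. Muscle genes had medians of -1.01 in KO and 0.38 in WT, and with a muscle covariate in the fit, added after seeing the data, 10 probe sets were called across genotypes and 4 in the core. Over all tested probe sets, changes in KO and WT had the same sign for 53.4% and a correlation across probe sets of 0.04, which is a description, since probe sets are not independent replicates.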

How the data were processed

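The authors deposited 1 linear intensity per probe set and array, never negative. The labels name no software for them. The mean without the highest and lowest 2% was 150.1 on each of the 14 arrays, so arrays had been scaled to a common target. Medians lay between 61 and 80.4. The number of arrays limits the precision.

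Intensities were taken as log2(value + 32) and quantile normalized, since array medians spanned 0.27, over a limit of 0.2. The 66 control probe sets of 12488 were left out, and 8938 above their array's 40th percentile on at least 2 arrays were tested. Of these 7960 had 1 gene in the platform annotation, 303 several and 675 none. A mean for each of the 6 groups was fitted to 14 arrays with limma 3.58.1 in R 4.3.3 (8 residual and 4.56 prior degrees of freedom) and p-values adjusted by Benjamini-Hochberg. The script was tested on simulated data.

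Comparisons were the mean of the KO and WT changes, each change alone, their difference, and the larger of both p-values. Core probe sets were called by the mean and had an unadjusted p under 0.05 in each genotype. Named genes were the 15 largest core changes per direction, filled to 10 by p, the 5 calls whose genotypes differed most, and 2 to 4 members per list by size. In a list, the probe set with the highest mean stood for its gene. Map3k8, Cd40, Plk2, Ccng1, Egr1, Dusp1, Pdia3, Bcl3, Mb, Myh1, Atm and the unnamed core probe set fall outside that rule and were chosen after their values were seen. The members and the 33 lists were chosen with earlier results of these data known. Promoter windows came from RefSeq (GRCm38.p6) and were matched by symbol. Replicate letters did not pair arrays: 0 of 13 same-letter pairs correlated above 0.1. Alternatives changed normalization, offset, filter, arrays, weights, block and model.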

Additional observations from a re-analysis of the deposited data

Results flagged for a closer look

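The KO and WT responses at 120 min differed for 12 probe sets by the limma test of the difference itself, all smaller in KO. Of those named above, the KO minus WT differences were -2.27 and -1.93 for the 2 Nfkbia probe sets (limma adjusted p = 0.00179 and 0.0194), -3.57 and -4.17 for the 2 Cxcl1 probe sets (0.00283 each), -2.04 for Tnfaip3 (0.0348), -2.18 for Cd14 (0.0265) and -1.81 for Icam1 (0.0493). All 7 were called in the mean over both genotypes, and none of the 7 had an unadjusted p under 0.05 in KO.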

How the results depend on the processing

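Cdkn1a kept its call under every setting except the additive 10-array model (limma adjusted p = 0.173), and 104646_at under all. No named probe set changed sign where called. The mean over genotypes gave 19 calls, against 11 with an offset of 16, 35 with array weights, 8 with a replicate block, 1 in the additive model on 10 arrays (104646_at), and, chosen after seeing the data, 10 with a muscle covariate and 9 without the 3 arrays of lowest correlation. The core of 7 became 3, 13 and 3 with that offset, weights and block, 11 with a filter on 4 arrays, 4 with the covariate and 2 without the 3 arrays. The difference of responses gave 12 calls, against 21 with weights, 5 with the block, 3 with the covariate and 5 without the 3 arrays. WT gave 46, or 25 with the block. KO gave 0, or 1 (104646_at) with weights or on the 10 arrays alone, and the larger of both p-values 0, or 1 with weights.

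Leaving out 1 array at a time gave 8 to 28 calls for the mean (8 without either WT 120 min array, 10 without either KO 120 min array, 11 without WT untreated C or KO untreated A) and 2 to 9 in the core (2 without either WT 120 min array, 3 without either KO 120 min array, 4 without KO untreated A or either WT 30 min array). It gave 3 to 18 for the difference (3 without WT 120 min A or KO untreated C), 13 to 44 for WT (13 without WT 120 min B), 0 to 11 for KO and 0 to 0 for the larger p. The 11 in KO came without KO 120 min B and the 2 without KO untreated B were the muscle genes Mb and Myh1. Causes were not tested.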

Other observations

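Genes of the unfolded protein response had mixed values in both genotypes, none called across them. Trib3, a pseudokinase gene induced by CHOP, had 0.65 in KO and 0.49 in WT, beside Ddit3, which encodes CHOP. Manf, a secreted factor of the endoplasmic reticulum, read 327.4 and 324.3 in KO at 120 min, against 554.6, 515.1 and 439.8 in untreated KO, and 318.1 and 320.1 in WT at 120 min, against 406, 451.8 and 606.9 untreated. All 4 irradiated arrays lay within 10 units of each other and below all 6 untreated arrays, with a change of -0.57 (limma adjusted p = 0.367). Pdia3, a folding enzyme gene, had -0.35 in KO and -0.41 in WT, and the list's medians were -0.13 in KO and 0.09 in WT.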
